A study of Rattus norvegicus with 16 samples.

Results

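The genes described here are 10 messages of rat liver that encode plasma carriers and related secreted proteins. They were taken by symbol: albumin (Alb), transthyretin (Ttr), vitamin D-binding protein (Gc), retinol-binding protein (Rbp4), fetuin-A (Ahsg), alpha-fetoprotein (Afp), alpha-1-antitrypsin (Serpina1), corticosteroid-binding globulin (Serpina6), hemopexin (Hpx) and fetuin-B (Fetub). All 10 were found among the 17168 genes of the deposited tables, and all 10 were among the 11162 genes that passed the filter on low counts.

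The study sequenced liver RNA of Sprague Dawley rats that were wild type (WT) or lacked Tspo (knockout, KO), on ordinary chow or on a methionine- and choline-deficient diet (MCD), which is used to produce steatohepatitis. Tspo codes for translocator protein, a cholesterol-binding protein of mitochondria. The groups were KO rats on MCD, WT rats on MCD, KO rats on chow and WT rats on chow, with 4 libraries each and 16 in all. All rats ate a normal diet until 12 weeks of age, stayed on chow or MCD for 8 weeks, and were 20 weeks old at sampling. The groups follow each sample's own genotype and feeding labels, which give both diets in both genotypes; the general treatment note can be read as chow for WT and MCD for KO, and the series title speaks of mice where every sample is labelled rat. The labels do not describe the knockout allele, or state that each of the 4 libraries is a different rat, so the spread behind each p-value may in part be technical.

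Hepatocytes secrete most of the proteins in blood plasma. Several of these carry ligands that are poorly soluble or must be kept from the kidney, such as fatty acids, thyroid hormone, retinol, vitamin D and glucocorticoids, and the amount of carrier sets how much ligand the blood can hold. In the liver their genes are read at high rates through promoters bound by hepatocyte factors such as HNF4 and C/EBP, and Afp is the member that is high in the fetus and is silenced after birth.

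Alb, Afp and Gc belong to 1 gene family, and the promoters of these 3 are shown because Alb and Gc were called lower on MCD and Afp was not called. The sequences come from RefSeq (GRCr8) and cover the 250 bases before the annotated start, 5′ to 3′ on the gene's strand, at chr14:17906980-17907229 (minus strand) for Alb, chr14:17875646-17875895 (minus strand) for Afp and chr14:18916005-18916254 (plus strand) for Gc. Capitals mark the C/EBP motif TTGCNNAA on either strand, which has no match in the Gc sequence.
Alb: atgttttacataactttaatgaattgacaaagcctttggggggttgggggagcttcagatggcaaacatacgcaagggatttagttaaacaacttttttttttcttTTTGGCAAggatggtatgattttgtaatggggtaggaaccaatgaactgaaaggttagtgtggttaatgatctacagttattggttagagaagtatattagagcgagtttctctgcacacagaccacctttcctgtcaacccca
Afp: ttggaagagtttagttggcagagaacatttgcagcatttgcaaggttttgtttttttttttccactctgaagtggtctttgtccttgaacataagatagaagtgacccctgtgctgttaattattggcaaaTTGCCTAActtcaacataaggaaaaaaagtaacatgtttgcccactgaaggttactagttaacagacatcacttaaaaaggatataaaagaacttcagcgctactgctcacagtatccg
Gc: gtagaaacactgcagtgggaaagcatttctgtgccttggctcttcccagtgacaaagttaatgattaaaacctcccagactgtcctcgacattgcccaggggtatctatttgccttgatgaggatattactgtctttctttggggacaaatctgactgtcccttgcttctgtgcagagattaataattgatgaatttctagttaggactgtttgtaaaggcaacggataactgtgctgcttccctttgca

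In the longer window of 250 bases before to 50 after the start, on both strands, TTGCNNAA was present in 5 of the 8 member promoters that RefSeq gave (Alb, Rbp4, Ahsg, Afp and Hpx) and in 10.6% of 33469 rat promoters. It lay at -144 to -137 in Alb, on the strand opposite to the gene, and at -119 to -112 in Afp, on the gene's strand, counted from the start. The TATA box TATAAA was found for Rbp4 and Afp (14.2% of all), and TTATGNAA, bound by the PAR bZIP factors, for Alb, Rbp4 and Serpina1 (3.66% of all); in Rbp4 the same 8 bases match both this motif and that of C/EBP. CAAAGTNCA (1.24% of all) and TGTTTAC (3.78% of all) were in none of the 8. The 5 motifs were chosen after a first look at the member promoters, and a match only describes these letters. Serpina6 and Fetub are named here without a sequence. Of the protein-coding genes in GRCr8, 0 lie between Alb and Afp, 0 between Ahsg and Fetub, 4 between Alb and Gc and 4 between Serpina1 and Serpina6.

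Library totals ran from 8745756 to 15762650 counts. Levels are CPM, counts scaled by the library total and a TMM factor; the factors were 1.14 to 1.35 in the MCD libraries and 0.644 to 1.00 in the chow libraries, so every level and fold below is relative to the bulk of genes. The targeted gene Tspo averaged below its WT group on both diets without being called (log2 fold -2.07 ± 0.45 on MCD and -1.23 ± 0.49 on chow), and the library labelled KO-MCD 1 held 4.17 CPM, against 1.02 to 1.66 in the other KO-MCD libraries and 7.63 to 9.33 in WT-MCD. The library labelled KO-CHOW 4 held 4.42 CPM, against 0.656 to 1.29 in the other KO-CHOW libraries and 3.61 to 5.23 in WT-CHOW. These libraries and WT-CHOW 4 stood apart on the second principal component (16.1% of the variance), at -44.2, -63.7 and -33.0, against -9.12 or more in the rest. They were also the lowest of their groups in an index of message length, in which the average log2 CPM of 24 short messages was taken from that of 16 long ones. The index was -2.21 to 0.31 in KO-MCD, -0.23 to 0.43 in WT-MCD, -3.10 to -1.27 in KO-CHOW and -2.05 to -1.07 in WT-CHOW.

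On the MCD diet 8 of the 10 carriers fell in both genotypes, and 0 rose. Albumin, transthyretin, the vitamin D and retinol carriers, both fetuins and both serpins were lower, from 1.76-fold (Alb) to 9.52-fold (Serpina6) in the WT and from 1.71-fold (Rbp4) to 10.2-fold (Serpina6) in the KO. Each of the 8 had all of its MCD libraries below all of its chow libraries in both genotypes. The share of all genes that did so was not counted, so this only describes the 8. Afp and Hpx were not called and their groups overlapped. Of all genes tested, 15.9% were called downward and 18.2% upward in the WT, and 18.5% downward and 21.9% upward in the KO. The median log2 fold of the 10 members was -1.07 in the KO and -1.01 in the WT, against 0.041 in the KO and -0.0023 in the WT over all genes.

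**Figure D1:**
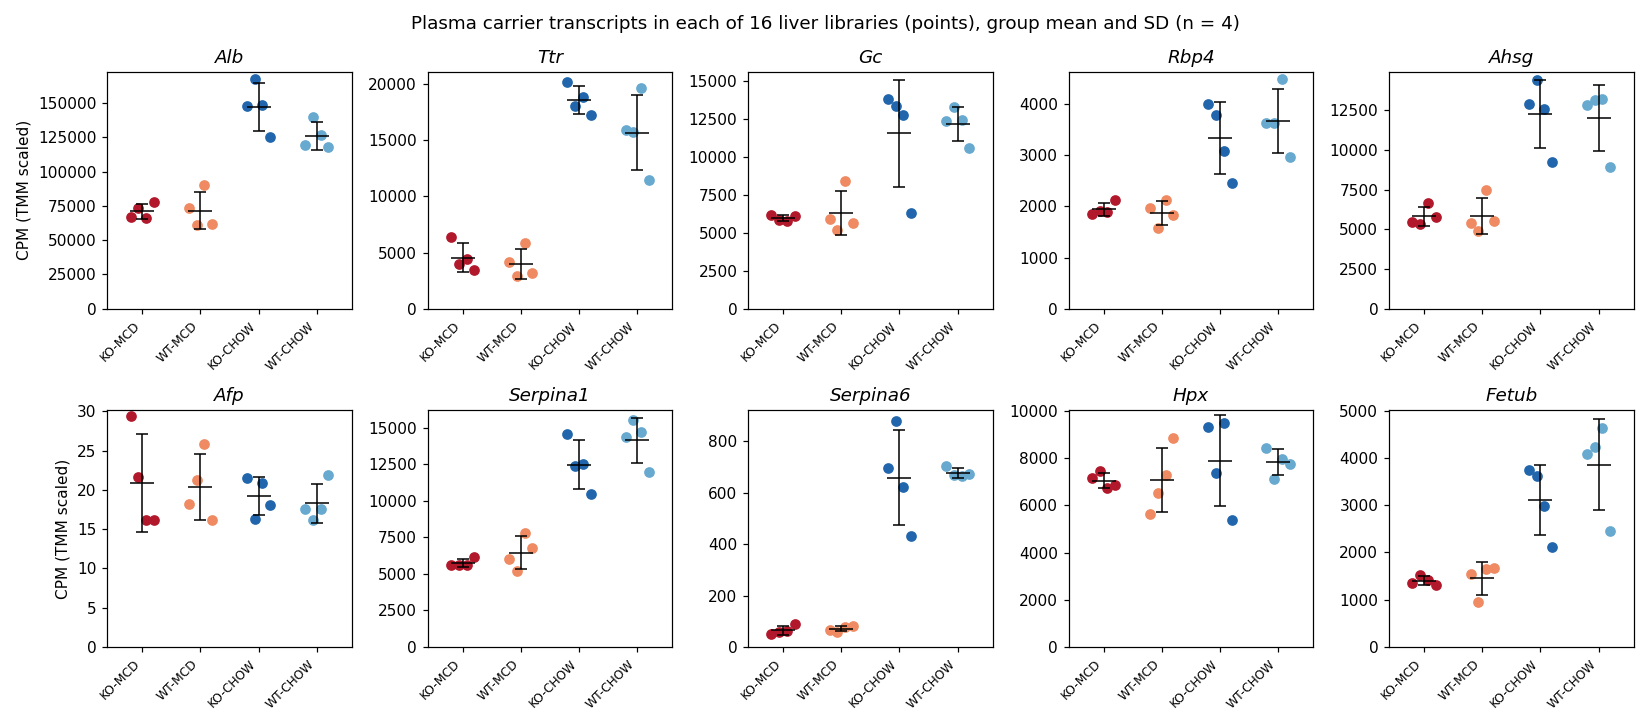
CPM (linear axes from 0) of each of the 10 genes in every library, with KO-MCD, WT-MCD, KO-CHOW and WT-CHOW from left to right; points are libraries and bars the group mean with its SD (n = 4). In 7 panels all MCD points lie below all chow points; in the Gc panel this holds within each genotype, and in the Afp and Hpx panels the diets overlap.

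Alb, the main protein of plasma and the carrier of fatty acids and bilirubin, was at 66722, 73169, 65827 and 77816 CPM in KO-MCD, and 73479, 60896, 90186 and 61481 CPM in WT-MCD. The chow groups held 147509, 167170, 148414 and 125103 CPM in KO-CHOW, and 119057, 139977, 126528 and 117697 CPM in WT-CHOW. Every MCD library was below every chow library, and the highest MCD value, 90186, was 1 WT library. The log2 fold of MCD over chow was -1.05 ± 0.18 (SE, adjusted p = 0.000388) in the KO and -0.82 ± 0.18 (adjusted p = 0.00274) in the WT. As a share of all counts, Alb alone took 8.70 ± 1.16% of a library in KO-MCD, 9.02 ± 1.52% in WT-MCD, 11.0 ± 2.35% in KO-CHOW and 11.0 ± 1.46% in WT-CHOW (SD, n = 4 each), and on that scale the diets overlapped. All 10 members together took 12.7 ± 1.35% in KO-MCD, 13.2 ± 2.14% in WT-MCD, 16.3 ± 3.48% in KO-CHOW and 17.2 ± 2.44% in WT-CHOW. In bulk liver, fewer hepatocytes and less of a message in each hepatocyte cannot be told apart.

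Afp, the fetal relative of albumin, stayed at a low level in all groups. It had 29.4, 21.6, 16.2 and 16.2 CPM in KO-MCD, and 18.2, 21.2, 25.9 and 16.2 CPM in WT-MCD. It had 21.5, 16.3, 20.9 and 18.1 CPM in KO-CHOW, and 17.5, 16.2, 17.6 and 21.9 CPM in WT-CHOW. The groups overlapped throughout, and the highest value was the library labelled KO-MCD 1. The log2 fold of MCD over chow was 0.12 ± 0.20 (95% interval -0.31 to 0.55, adjusted p = 0.656) in the KO and 0.15 ± 0.20 (-0.28 to 0.58, adjusted p = 0.58) in the WT, and the KO value turned to -0.12 without the libraries that stood apart. These values rest on 122 to 427 counts per library.

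Gc carries vitamin D metabolites and binds actin released from damaged cells. Its level was 6156, 5856, 5794 and 6091 CPM in KO-MCD, and 5903, 5194, 8425 and 5657 CPM in WT-MCD. The chow values were 13784, 13328, 12727 and 6261 CPM in KO-CHOW, and 12372, 13284, 12385 and 10564 CPM in WT-CHOW. The library labelled KO-CHOW 4 lay just above the highest KO-MCD library and below the highest WT-MCD library, while the other chow libraries were above all MCD libraries. The log2 fold was -0.95 ± 0.23 in both genotypes (adjusted p = 0.00463 in the KO and 0.00553 in the WT). Without the 3 libraries that stood apart it was -1.17 in the KO and -1.01 in the WT.

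Ttr, which carries thyroxine and holds retinol-loaded Rbp4 in the circulation, fell on MCD. Its level was 6343, 3949, 4457 and 3409 CPM in KO-MCD, and 4142, 2921, 5862 and 3158 CPM in WT-MCD. On chow it was 20211, 18048, 18892 and 17233 CPM in KO-CHOW, and 15917, 15704, 19621 and 11503 CPM in WT-CHOW. The diets were far apart in both genotypes, and the lowest chow value was WT-CHOW 4. The log2 fold was -2.03 ± 0.26 (adjusted p = 3.41e-05) in the KO and -1.96 ± 0.26 (adjusted p = 5.44e-05) in the WT, below which lay 1.55% and 1.53% of the folds of all genes.

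Rbp4, the carrier of retinol from liver stores, had 1854, 1901, 1884 and 2120 CPM in KO-MCD, and 1968, 1575, 2125 and 1832 CPM in WT-MCD. It had 3998, 3780, 3072 and 2455 CPM in KO-CHOW, and 3630, 3624, 4480 and 2959 CPM in WT-CHOW. The MCD libraries lay close together and below the chow libraries, of which KO-CHOW 4 came nearest. The log2 fold was -0.78 ± 0.19 (adjusted p = 0.00435) in the KO and -0.97 ± 0.19 (adjusted p = 0.00122) in the WT.

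Serpina6, the non-inhibitory serpin that carries glucocorticoids in plasma, had the lowest log2 fold of the 10 members in both genotypes. It had 52.2, 56.4, 61.1 and 88.4 CPM in KO-MCD, and 66.6, 59.6, 76.5 and 82.1 CPM in WT-MCD. It had 697.8, 879.7, 623.6 and 432.4 CPM in KO-CHOW, and 705.8, 667.6, 664.9 and 672.6 CPM in WT-CHOW. The lowest chow library, at 432.4 CPM, was far above the highest MCD library, at 88.4 CPM, and the WT-CHOW libraries lay within a narrow band. The log2 fold was -3.35 ± 0.23 (adjusted p = 1.66e-07) in the KO and -3.25 ± 0.23 (adjusted p = 2.96e-07) in the WT, with 0.403% of all genes at a lower fold in each genotype.

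Serpina1, which inhibits neutrophil elastase and is not itself a carrier, had 5634, 5628, 5636 and 6175 CPM in KO-MCD, and 6005, 5179, 7832 and 6802 CPM in WT-MCD. It had 14605, 12376, 12512 and 10444 CPM in KO-CHOW, and 14372, 15548, 14702 and 11949 CPM in WT-CHOW. All MCD libraries were below all chow libraries. The log2 fold was -1.11 ± 0.18 (adjusted p = 0.000212) in the KO and -1.13 ± 0.18 (adjusted p = 0.000223) in the WT.

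The fetuins are secreted members of the cystatin superfamily. Ahsg, which keeps calcium phosphate in solution, averaged 5815 ± 603 CPM in KO-MCD, 5817 ± 1132 in WT-MCD, 12276 ± 2159 in KO-CHOW and 12023 ± 2068 in WT-CHOW (SD, n = 4 each). Fetub, known in the mouse for inhibiting the egg protease ovastacin, averaged 1402 ± 92.4 CPM in KO-MCD, 1451 ± 340 in WT-MCD, 3115 ± 745 in KO-CHOW and 3857 ± 962 in WT-CHOW. In both genes the fourth chow library of each genotype was the lowest, at 9267 CPM (KO-CHOW) and 8932 CPM (WT-CHOW) for Ahsg and at 2111 CPM (KO-CHOW) and 2457 CPM (WT-CHOW) for Fetub. The log2 fold of Ahsg was -1.08 ± 0.20 (adjusted p = 0.000748) in the KO and -1.05 ± 0.20 (adjusted p = 0.00111) in the WT. That of Fetub was -1.15 ± 0.24 (adjusted p = 0.00168) in the KO and -1.41 ± 0.24 (adjusted p = 0.000492) in the WT.

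Hpx, the scavenger of free heme, was the abundant member that was not called. It had 7172, 7450, 6731 and 6857 CPM in KO-MCD, and 5644, 6547, 7275 and 8876 CPM in WT-MCD. It had 9320, 7379, 9490 and 5384 CPM in KO-CHOW, and 8430, 7121, 7989 and 7776 CPM in WT-CHOW. The groups overlapped, with the widest spread in KO-CHOW. The log2 fold was -0.16 ± 0.20 (95% interval -0.59 to 0.26, adjusted p = 0.527) in the KO and -0.14 ± 0.20 (-0.57 to 0.28, adjusted p = 0.595) in the WT.

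**Figure D2:**
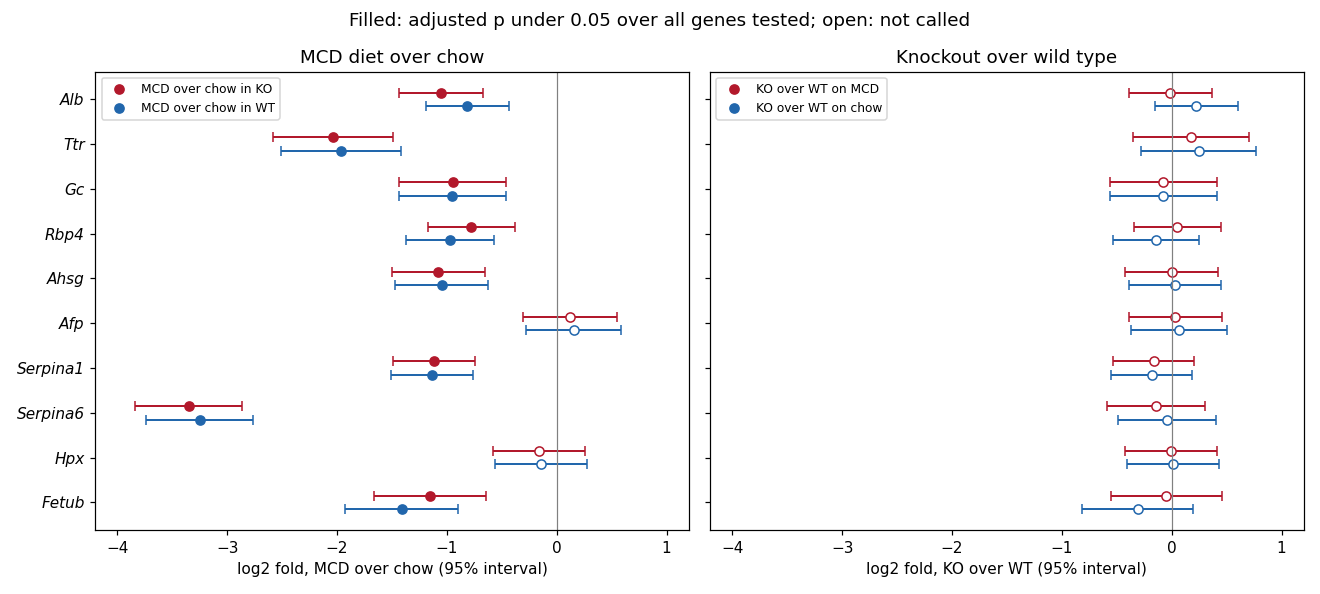
Log2 fold with 95% interval of each gene, on the left for MCD over chow and on the right for KO over WT, each from edgeR; filled points passed an adjusted p of 0.05. On the left 8 genes are filled in both genotypes, with Serpina6 at -3.35 and -3.25, and on the right 0 are.

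The diet result depends in part on the scaling. With library totals in place of TMM factors the median gene moved to 0.765 in the KO and 0.528 in the WT. Over all genes 6446 of 6852 calls in the KO and 4803 of 5311 in the WT were then upward, against 2447 of 4514 in the KO and 2031 of 3809 in the WT with TMM. Ttr (-1.33 in the KO and -1.44 in the WT) and Serpina6 (-2.64 in the KO and -2.72 in the WT) were still called downward in both genotypes. Serpina1 (-0.39 in the KO and -0.61 in the WT) and Fetub (-0.45 in the KO and -0.89 in the WT) were called in the WT and not in the KO, and the difference between genotypes was called for neither. Alb (-0.34 in the KO and -0.29 in the WT), Gc, Rbp4 and Ahsg kept a negative log2 fold but were not called. Afp rose on that scale, by 0.82 (adjusted p = 0.00196) in the KO and 0.69 (adjusted p = 0.00915) in the WT, and Hpx turned to 0.54 in the KO and 0.39 in the WT without being called. Relative to the median gene under the same scaling, the 8 genes and Hpx stayed below it and Afp lay above it in both genotypes. A change of scaling shifts all genes by nearly the same amount. This position could therefore hardly change, and it is no separate evidence for a fall. The message-length index moved with the diet. With the index added to the model, the same 8 genes were called in both genotypes. Alb was then at -1.15 (KO) and -0.92 (WT), and Ttr at -1.83 (KO) and -1.73 (WT). The index comes from these same data, and its slope rests on differences inside the groups. The part of the index that moves with the diet therefore cannot be told apart from the diet by this fit.

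**Figure D3:**
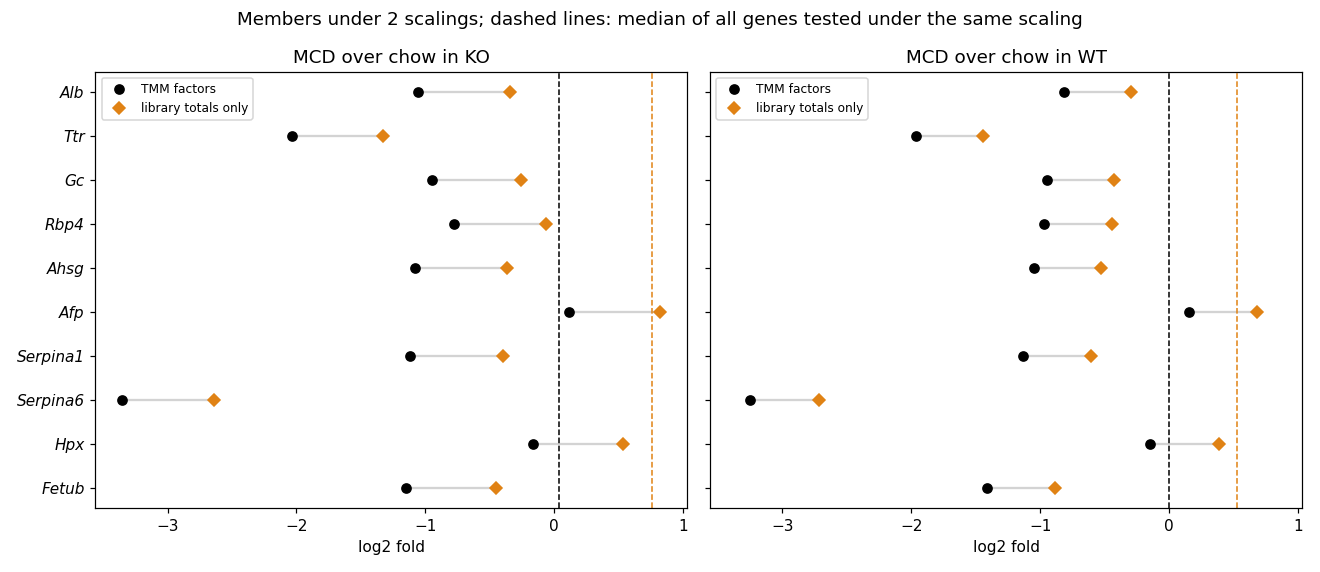
Log2 fold of MCD over chow in the KO (left) and the WT (right) with TMM factors (black circles) and with library totals only (orange diamonds); dashed lines are the median of all genes under each scaling. The median line moves to 0.765 in the KO and 0.528 in the WT. Alb, at -0.34 and -0.29, shifts with it by nearly the same amount, as the change of scaling requires.

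Ratios of members within a library do not depend on the scaling. The log2 ratio of Ttr over Rbp4 was 1.19 ± 0.45 in KO-MCD, 1.05 ± 0.30 in WT-MCD, 2.51 ± 0.26 in KO-CHOW and 2.08 ± 0.08 in WT-CHOW (SD, n = 4 each). MCD minus chow was -1.32 in the KO and -1.03 in the WT, with no overlap of the diets. For Serpina6 over Serpina1 the difference was -2.23 in the KO and -2.12 in the WT, and for Ttr over Alb -1.02 in the KO and -1.16 in the WT. For Afp over Alb it was 1.13 in the KO and 0.97 in the WT, and for Hpx over Alb 0.92 in the KO and 0.67 in the WT. These ratios did not overlap between diets, whereas Gc over Alb (0.17 in the KO and -0.14 in the WT) and Fetub over Ahsg (-0.05 in the KO and -0.36 in the WT) did. With 4 libraries against 4 the smallest two-sided p of an exact permutation test is 0.0286; the 5 ratios without overlap reached it in both genotypes, but over the 28 comparisons the adjusted p was 0.0727, so none passed.

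**Figure D4:**
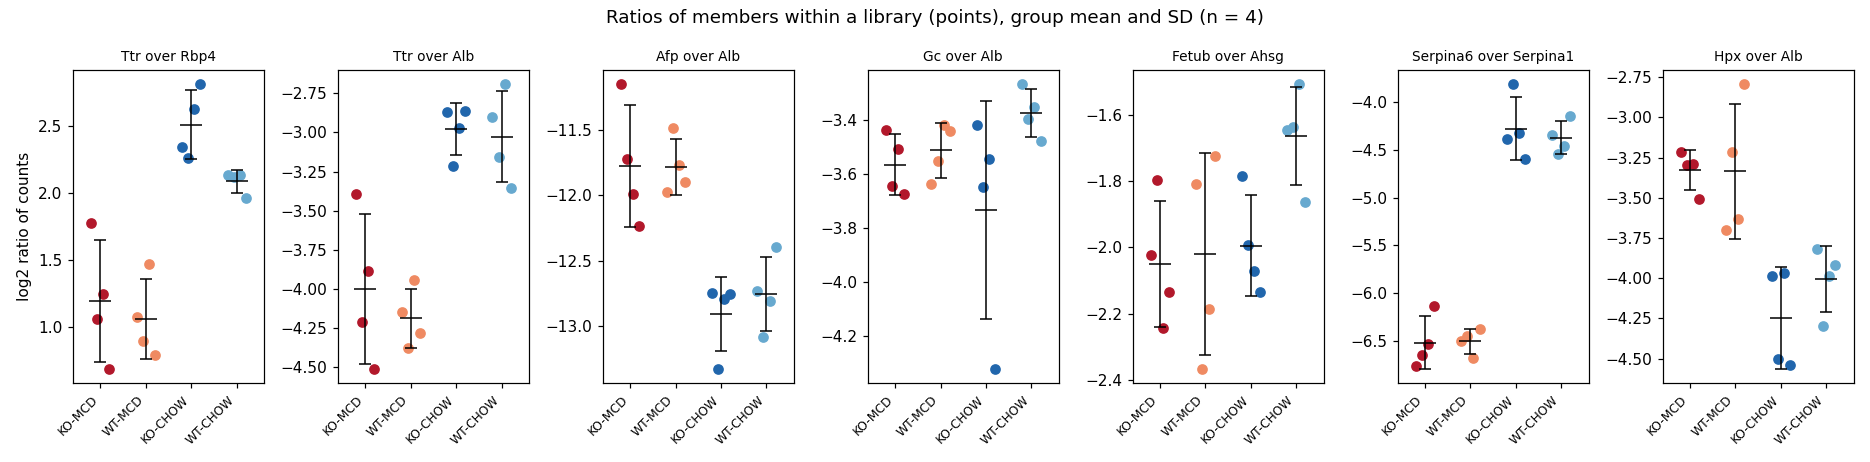
Log2 ratio of the counts of 2 members in each library, with KO-MCD, WT-MCD, KO-CHOW and WT-CHOW from left to right in each panel; points are libraries and bars the mean with its SD (n = 4). The MCD points of Ttr over Rbp4, Ttr over Alb and Serpina6 over Serpina1 lie below the chow points, and those of Afp over Alb and Hpx over Alb lie above them.

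Against the WT, no member was called in the KO on either diet. In the KO on MCD, 0 of the 10 were called by edgeR against the WT on MCD, where 0% of all genes were called (81 genes at an unadjusted p under 0.05, 0 called by DESeq2 and 0 by limma). In the KO on chow, 0 of 10 were called against the WT on chow, where 0.00896% of all genes were (1 gene of 11162, with 1153 at an unadjusted p under 0.05, 14 called by DESeq2 and 2 by limma). The diet effects of the genotypes differed for 0 of 10 members and 0% of all genes (330 genes at an unadjusted p under 0.05, 1 called by DESeq2, and by limma 0 with the filter and 1 without it). At an unadjusted p under 0.05, 0 members were found in any of these 3 comparisons, and all groups overlapped. The intervals give the differences that these data leave possible. On chow Alb was at 0.22 (95% interval -0.15 to 0.60), Ttr at 0.25 (-0.28 to 0.77) and Fetub at -0.31 (-0.81 to 0.20). On MCD Serpina1 was at -0.16 (-0.53 to 0.21), all on the log2 scale. Ttr over Rbp4 was higher in KO-CHOW than in WT-CHOW by 0.42 with no overlap (exact permutation p = 0.0286, adjusted p = 0.0727), which did not pass. These values rest on groups that include both knockout libraries with high Tspo; without them 0 of 10 members were called as well. Without the 3 libraries that stood apart, 516 genes were called in the KO on chow against the WT, and 0 of them were members.

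The members moved together across the 16 libraries, apart from Afp and Hpx. Over the 45 pairs the median Pearson correlation of log2 CPM was 0.910, with a range of -0.295 to 0.974, and after the group means were removed the median was 0.530. Afp had a median of -0.226 with the other members and Hpx 0.424, against 0.906 to 0.949 for the rest. These are descriptions, since the libraries share diet, depth and scaling. Among all genes tested, the pattern most like that of Alb was of Cyp39a1 (0.987), that of Ttr of Ndufa11 (0.988), that of Serpina6 of Cyp2c7 (0.991) and that of Serpina1 of Lcat (0.991). For Ahsg it was Apoa4 (0.988), for Gc Vtn (0.968), for Rbp4 F10 (0.977) and for Fetub Rbp4 (0.974). The nearest genes were less alike for Afp (Ms4a6bl, 0.853) and Hpx (Trim8, 0.796).

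In a list of other carriers, which also holds the intracellular Fabp1, 7 of 13 tested fell on MCD in the KO and 7 of 13 in the WT, and 0 rose (18.5% of all genes fell in the KO and 15.9% in the WT). Igfals, which holds insulin-like growth factors in plasma, was at 119 ± 30.9 CPM in KO-MCD, 98.0 ± 15.0 in WT-MCD, 609 ± 16.5 in KO-CHOW and 416 ± 89.0 in WT-CHOW, a log2 fold of -2.35 ± 0.21 (KO) and -2.09 ± 0.21 (WT). Fabp1, the fatty acid-binding protein inside hepatocytes, had -2.97 ± 0.29 (KO) and -2.85 ± 0.29 (WT), and Apom, a carrier of sphingosine-1-phosphate, -1.10 ± 0.25 (KO) and -1.91 ± 0.25 (WT). Transferrin (Tf, -0.31 in the KO and -0.08 in the WT) and haptoglobin (Hp, -0.28 in the KO and -0.42 in the WT), named for their role after their values were seen, were not called, like Hpx, and both were positive with library totals. Neither trait was particular to Tf and Hp. Sepp1, Orm1 and Pltp of the same list, also named after their values were seen, were not called with TMM and were positive with library totals in both genotypes. On that scale 3 of 13 (KO) and 4 of 13 (WT) fell. Of all 11162 genes 6852 were then called in the KO, 6446 of them upward, and 5311 in the WT, 4803 of them upward.

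Of the serpin relatives 9 of 11 fell in the KO and 8 of 11 in the WT, and 0 rose. Of all genes, 18.5% fell in the KO and 15.9% in the WT. The inhibitors Serpina4 (kallistatin; -1.54 ± 0.20 in the KO and -1.75 ± 0.20 in the WT), Serpinf2 (alpha-2-antiplasmin; -1.17 ± 0.15 in the KO and -1.25 ± 0.15 in the WT) and Serpinc1 (antithrombin; -1.32 ± 0.17 in the KO and -1.38 ± 0.17 in the WT) fell in both genotypes. With library totals only, 4 of 11 fell in the KO and 5 of 11 in the WT, and 1 rose in each. The shares of all genes differ on that scale: of 11162 genes 6852 were called in the KO, 6446 of them upward. In the WT it was 5311 genes, 4803 of them upward.

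Of the hepatocyte transcription factors 4 of 16 rose and 4 fell in the KO, and 3 rose and 4 fell in the WT, near the shares of all genes called (21.9% upward and 18.5% downward in the KO, 18.2% upward and 15.9% downward in the WT). Ppara, the receptor that turns on fatty acid oxidation, was at 36.8 ± 12.6 CPM in KO-MCD, 36.2 ± 6.04 in WT-MCD, 6.53 ± 1.62 in KO-CHOW and 8.60 ± 1.96 in WT-CHOW (log2 fold 2.49 ± 0.27 in the KO and 2.08 ± 0.26 in the WT). Nr1i3, a xenobiotic receptor, rose by 1.78 ± 0.57 in the KO and 2.12 ± 0.57 in the WT. Hnf4a (-0.48 in the KO and -0.27 in the WT), named for its role after its values were seen, was not called, and was positive with library totals only. Cebpa, named likewise, fell, with a log2 fold of -1.03 ± 0.31 (adjusted p = 0.0151) in the KO and -0.99 ± 0.31 (adjusted p = 0.0218) in the WT, and was not called with library totals. On that scale 5 rose and 1 fell in the KO, and 5 rose and 2 fell in the WT. These counts stand against 6446 of 11162 genes called upward with library totals in the KO and 4803 in the WT, so they show no rise particular to the list.

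Of the repressors of Afp 1 of 6 rose in the KO and 2 of 6 in the WT, and 0 fell, against 21.9% of all genes called upward in the KO and 18.2% in the WT; counts this small say little about the list. Zhx3 rose by 1.54 ± 0.25 (KO) and 1.5 ± 0.24 (WT), while Zhx2 (0.29 in the KO and 0.32 in the WT) and Zbtb20 (-0.91 in the KO and -0.89 in the WT), which silence Afp after birth in the mouse, were not called; they were named after their values were seen. With library totals only 5 of the 6 rose in the KO and 4 in the WT, where 6446 of 11162 genes in the KO and 4803 in the WT were called upward. Of other oncofetal and progenitor genes, 7 of 9 rose and 1 fell in the KO, and 6 rose and 1 fell in the WT. The shares of all genes called downward were 18.5% in the KO and 15.9% in the WT. This list shares genes, Epcam among them, with the bile duct markers given further below. Epcam, a marker of bile duct and progenitor cells, was at 41.3 ± 7.44 CPM in KO-MCD, 40.2 ± 3.57 in WT-MCD, 13.1 ± 2.30 in KO-CHOW and 15.8 ± 2.21 in WT-CHOW (log2 fold 1.65 ± 0.17 in the KO and 1.35 ± 0.17 in the WT). Spp1 (osteopontin) rose by 3.15 ± 0.55 (KO) and 3.84 ± 0.57 (WT), and the imprinted RNA H19 by 2.31 ± 0.55 (KO) and 1.93 ± 0.53 (WT). Igf2, with a mean of 2.67 CPM or less in every group, fell, with a log2 fold of -1.75 ± 0.67 (KO) and -2.43 ± 0.63 (WT). With library totals 8 of 9 rose in the KO and 7 in the WT, with 0 and 1 falling.

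Among genes for cargo and receptors of the carriers, 3 of 21 rose and 7 fell in the KO, and 3 rose and 6 fell in the WT. The shares of all genes were 21.9% upward and 18.5% downward in the KO, and 18.2% upward and 15.9% downward in the WT. The glucocorticoid receptor Nr3c1, whose ligand Serpina6 carries, was at 78.5 ± 13.1 CPM in KO-MCD, 74.1 ± 5.41 in WT-MCD, 157 ± 12.0 in KO-CHOW and 123 ± 20.1 in WT-CHOW (log2 fold -1.0 ± 0.15 in the KO and -0.74 ± 0.15 in the WT). Dio1, which activates thyroxine, the ligand of Ttr, fell, with log2 folds of -0.76 ± 0.22 in the KO and -1.25 ± 0.22 in the WT. The insulin receptor Insr rose by 1.21 ± 0.31 (KO) and 1.23 ± 0.30 (WT). With library totals only 7 rose and 0 fell in the KO and 5 rose and 1 fell in the WT. Of all 11162 genes, 6446 in the KO and 4803 in the WT were called upward on that scale. The turn with the scaling is thus not particular to this list.

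The secretory pathway did not move with the carriers as a block: 1 of 17 rose and 5 fell in the KO, and 4 rose and 2 fell in the WT. Over all genes 21.9% rose and 18.5% fell in the KO, and 18.2% rose and 15.9% fell in the WT. Lman1, a cargo receptor between the endoplasmic reticulum and the Golgi, was higher on MCD, at 75.1 ± 12.3 CPM in KO-MCD, 84.6 ± 14.1 in WT-MCD, 35.4 ± 11.4 in KO-CHOW and 37.0 ± 7.53 in WT-CHOW (log2 fold 1.09 ± 0.23 in the KO and 1.19 ± 0.23 in the WT). The chaperones Pdia3 (-0.56 ± 0.15 in the KO and -0.47 ± 0.15 in the WT) and Calr (-0.58 ± 0.18 in the KO and -0.47 ± 0.18 in the WT) fell. With library totals only 8 rose and 0 fell in the KO, which turns the direction of the counts there, and 7 rose and 0 fell in the WT. This turn was not particular to the secretory pathway, since 6446 of 11162 genes in the KO and 4803 in the WT were then called upward.

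**Figure D5:**
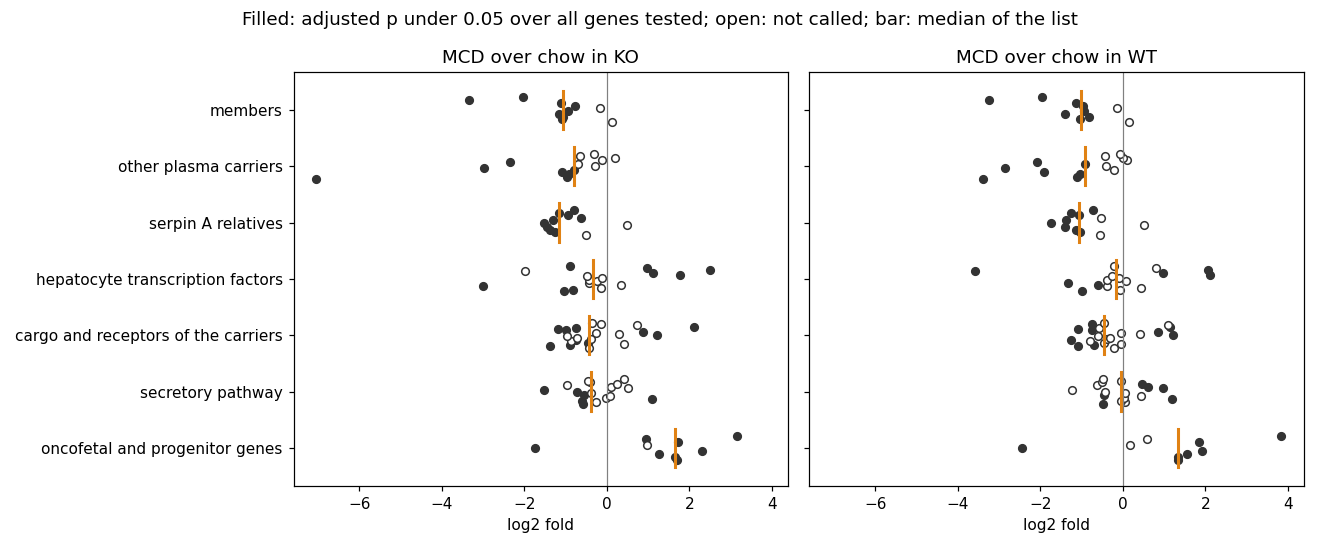
Log2 fold of MCD over chow (KO left, WT right) of each tested gene in the members and 6 related lists; filled points passed an adjusted p of 0.05 and orange bars are medians. The medians of the members, at -1.07 in the KO and -1.01 in the WT, lie near those of the serpin relatives, at -1.17 and -1.06.

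The tissue label was compared with cell type markers. The counts below with TMM factors stand against 21.9% of all genes upward and 18.5% downward in the KO, and 18.2% upward and 15.9% downward in the WT. Those with library totals stand against 6852 of 11162 genes called in the KO, 6446 of them upward. In the WT 5311 were called on that scale, 4803 of them upward. Of 10 hepatocyte markers other than the members, 5 fell and 1 rose in the KO and 4 fell and 1 rose in the WT, with a summed level of 12879 to 17000 CPM in KO-MCD, 12207 to 15741 in WT-MCD, 16837 to 20387 in KO-CHOW and 16588 to 18480 in WT-CHOW. With library totals 1 of the 10 fell and 2 rose in the KO, and 1 fell and 1 rose in the WT. Arg1 of the urea cycle fell, with log2 folds of -1.17 ± 0.20 (KO) and -0.89 ± 0.20 (WT), and Cyp2e1 rose by 2.15 ± 0.26 (KO) and 1.58 ± 0.25 (WT), so the hepatocyte markers did not all move with the carriers. Of macrophage markers 2 of 7 rose and 2 fell in each genotype, and their summed level was 393 to 591 CPM in KO-MCD, 420 to 587 in WT-MCD, 401 to 634 in KO-CHOW and 321 to 514 in WT-CHOW. All 5 red cell markers fell in both genotypes, with summed levels of 116 to 167 CPM in KO-MCD, 97.4 to 269 in WT-MCD, 597 to 5060 in KO-CHOW and 1305 to 1934 in WT-CHOW. In the KO and the WT 2 and 1 of 7 stellate cell markers rose, 1 and 1 of 3 bile duct markers rose, and 2 and 1 of 5 endothelial markers rose, with 0 and 1 falling. Lymphocyte markers were called for 0 of 3 in both, and the 1 neutrophil marker tested fell in the KO and was not called in the WT. Of the markers of pancreas and fat, the 2 tested were both of the pancreas, and 1 rose and 1 fell in each. Their list had a low summed level, at most 7.21 CPM (KO-CHOW). With library totals only, 7 of 7 (KO) and 4 of 7 (WT) stellate, 3 and 2 of 3 bile duct, 5 and 2 of 5 endothelial and 4 and 3 of 7 macrophage markers rose. Most genes called on that scale rose as well, so these counts alone do not set the markers apart. The part of cell composition in the members' change was not tested. In the 3 knockout comparisons 0 genes of any list were called.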

How the data were processed

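Liver poly(A) RNA was made into stranded mRNA libraries, per the labels' protocols. The authors deposited expected counts per gene. RSEM 1.2.15, Bowtie2 2.1.0 and rn6 are listed, with no roles, per the submitters' processing notes. Strand setting and annotation: not given in the sources used here. Alongside, the authors deposited a normalised signal, TMM-scaled CPM, which for the members equalled the rounded count times a constant per library in 160 of 160 values (relative tolerance 1e-06). Expected counts share reads among similar genes, so levels of close relatives among the serpins and hemoglobins are uncertain.

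Counts were rounded and fitted in R 4.3.3 with edgeR 4.0.16: filterByExpr over the 4 groups (11162 genes left), TMM factors, 1 term per group over 16 libraries, the robust quasi-likelihood test, and Benjamini-Hochberg adjustment over all genes tested in a contrast. A gene was called at an adjusted p under 0.05. The SE was derived from the log2 fold and its F statistic. Tests were checked on simulated data. DESeq2 1.42.0 and limma 3.58.1 (log2 of deposited CPM + 1 or + 0.5) were alternatives. The labels state no pairing by replicate number. Same-numbered libraries of different groups had correlated deviations of over 0.1 in 7 of 24 cases (range -0.381 to 0.511, the highest for KO-CHOW 4 with WT-CHOW 4). The fourth libraries of the groups come after all others in the sample numbering. Some shared handling of same-numbered libraries is thus not excluded, and no block was used in the tests given. Promoters are from RefSeq GRCr8, whose build differs from rn6, so no other coordinates are given. The members and all lists were chosen with earlier results of these data known. Besides the members, genes are named as the called genes of a list with the smallest p (up to 4) or the most alike in pattern (up to 3), unless said otherwise; not all so chosen are described. The length-index genes, the fit with that index and the fit without both doubted knockout libraries were chosen after seeing the data.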

Additional observations from a re-analysis of the deposited data

Results flagged for a closer look

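In 5 of 68 groups of 4 values (members' CPM and within-library ratios), 1 library lay far from the other 3; chance flags about 1 in 20 groups. Gc was at 6261 CPM in the library labelled KO-CHOW 4, against 12727 to 13784 in the other KO-CHOW libraries. Ahsg was at 8932 CPM in WT-CHOW 4, against 12811 to 13181 in the other WT-CHOW libraries. Serpina1 was at 6175 CPM in KO-MCD 4, against 5628 to 5636 in the other KO-MCD libraries, whose spread was small. The log2 ratio of Ttr over Rbp4 was 1.96 in WT-CHOW 4, against 2.12 to 2.13 in the other WT-CHOW libraries. The log2 ratio of Afp over Alb was -13.3 in KO-CHOW 2, against -12.8 to -12.7 in the other KO-CHOW libraries. KO-CHOW 4 and WT-CHOW 4 are also among the 3 libraries that stood apart on the second principal component.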

How the results depend on the processing

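Under TMM, DESeq2, upper quartile, limma, block, length-index and left-out-library alternatives, 8 members were called downward on MCD in each genotype (8 to 8 when each library was left out in turn) and 0 in each of the 3 knockout comparisons (0 to 0). The exception was scaling by library totals, with 3 called in the KO (2 down, Afp up) and 5 in the WT (4 down, Afp up). Hpx turned to 0.54 in the KO and 0.39 in the WT. On that scale the median gene was higher on MCD. In the KO 6852 genes were called, 6446 of them upward, against 4514 and 2447 with TMM. The WT had 5311 genes called, 4803 of them upward, against 3809 and 2031 with TMM. Which scaling lies nearer to the change per cell was not tested. Afp on MCD in the KO turned to -0.12 without the 3 libraries apart and -0.12 without both doubted knockout libraries, with a range of -0.090 (without KO-MCD 1) to 0.23 as each library was left out. The same ranges were 0.018 to 0.25 for Afp in the WT, -0.31 to -0.062 for Hpx in the KO and -0.27 to -0.049 for Hpx in the WT, and neither gene was called in any of these fits. Over all genes, KO against WT on chow gave 516 calls without the 3 libraries apart and the difference of the diet effects 20, but 0 members. The share of the members was 12.7%, 13.2%, 16.3% and 17.2% of the genes that passed the filter in KO-MCD, WT-MCD, KO-CHOW and WT-CHOW, and the median correlation 0.815 by Spearman and 0.530 within groups. With only 4 libraries a group, knockout effects inside the intervals given are not excluded. The replicate block changed no call of a member (8 and 8 on MCD, 0 in the knockout comparisons).

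Signs of members' log2 folds in the knockout comparisons, none of which was called under any setting, turned as follows; the cause was not tested. With library totals the values were on MCD Afp -0.029, on chow Alb -0.0020, Ahsg -0.20, Afp -0.17, Hpx -0.21, in the difference Ttr 0.11, Ahsg 0.16, Afp 0.14, Serpina6 0.084, Hpx 0.15. With upper quartile factors they were on MCD Ahsg 0.0040, on chow Ahsg -0.028, Hpx -0.037, in the difference Ahsg 0.032, Afp 0.017, Hpx 0.031. With DESeq2's size factors they were in the difference Gc -0.026, Serpina1 -0.011. With DESeq2's test they were in the difference Gc -0.030, Serpina1 -0.014. With limma (pseudocount 1, and likewise at 0.5 or without the filter) they were on MCD Alb 0.0042, Ahsg 0.014, Hpx 0.013, on chow Hpx -0.021, in the difference Hpx 0.034. Without the filter there was on MCD Ahsg 0.00074. With the groups of a comparison alone there were on MCD Ahsg 0.012, Hpx 0.0045. With the replicate block there was on MCD Ahsg 0.0081. With the length index they were on MCD Alb 0.023, Gc 0.0016, Ahsg 0.064, Afp -0.10, Hpx 0.047, Fetub 0.041, on chow Afp -0.0098, Serpina6 0.030, in the difference Hpx 0.0040. Without the 3 libraries apart they were on MCD Alb 0.016, Ttr -0.029, Ahsg 0.027, Afp -0.18, on chow Gc 0.067, Serpina6 0.11, in the difference Gc -0.16, Ahsg 0.0019. Without both doubted knockout libraries they were on MCD Alb 0.016, Ttr -0.029, Ahsg 0.027, Afp -0.18, on chow Gc 0.13, Serpina6 0.11, in the difference Gc -0.22, Serpina1 -0.048. Leaving out each library in turn gave ranges that span 0: on MCD Alb -0.083 to 0.12, Ttr -0.030 to 0.41, Gc -0.16 to 0.10, Rbp4 -0.026 to 0.12, Ahsg -0.076 to 0.14, Afp -0.18 to 0.17, Hpx -0.10 to 0.12, Fetub -0.21 to 0.025, on chow Gc -0.17 to 0.13, Ahsg -0.088 to 0.14, Serpina6 -0.21 to 0.11, Hpx -0.088 to 0.16, in the difference Ttr -0.28 to 0.17, Gc -0.20 to 0.17, Ahsg -0.14 to 0.11, Afp -0.25 to 0.10, Serpina1 -0.075 to 0.12, Serpina6 -0.29 to 0.070, Hpx -0.16 to 0.11.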
